A study of Homo sapiens with 9 samples.

Results

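The genes described here are 34 genes of glycolysis and of the response to low oxygen, chosen by name, with earlier results of these data known, and not by a threshold on a measured value. They were followed in 3 groups of 3 mRNA sequencing libraries of MCF10A-YAP cells. All 34 were among the 57796 gene symbols counted, and all 34 were among the 15109 genes that had enough reads to be tested. MCF10A is an immortalised, non-transformed human breast epithelial line, and MCF10A-YAP cells overexpress constitutively active YAP, a coactivator of transcription, in the control group as well. The groups were TRAM2-KO1 and TRAM2-KO2, which carried 1 of 2 single guide RNAs (sgRNAs) against TRAM2, a translocon component of the endoplasmic reticulum (ER), and control, which carried a non-targeting sgRNA. All cells were transduced and antibiotic-selected cultures, sampled short of full confluence in medium with serum, EGF, insulin and hydrocortisone. No low-oxygen treatment is among the labels, so the levels are those of ordinary culture, and reads do not show which TRAM2 alleles were edited.

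Glycolysis splits glucose into pyruvate in a preparatory phase, which spends ATP, and a pay-off phase, which returns it. Proliferating cells often reduce the pyruvate to lactate and export it. When oxygen falls, prolyl hydroxylases of the EGLN family no longer mark the HIF alpha subunits for degradation, and HIF dimers bind a short DNA core, the hypoxia response element, next to many glycolytic genes and to genes such as VEGFA, CA9 and ADM. HIF alpha subunits are controlled mainly as proteins, which were not measured here.

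Libraries held 21.7 to 27.6 M reads. TRAM2 mRNA was 55.5% lower with TRAM2-KO1 and 55.1% lower with TRAM2-KO2 than in control, so the labels matched the targeted gene. GC-rich transcripts were lower in libraries B and C of TRAM2-KO1, where GC content and the deviation of a gene from its mean were correlated across genes at a Spearman rho of -0.529 and -0.361, against 0.182 in library A and 0.145 to 0.254 in controls. The TRAM2-KO2 libraries had 0.396, 0.169 and -0.0909. The basal epithelial markers KRT5 and KRT6A averaged 1057 and 1264 CPM in TRAM2-KO1, 1232 and 1535 CPM in TRAM2-KO2, and 1128 and 1292 CPM in control, where CPM (counts scaled to a common library size) does not correct for transcript length. TP63, another basal marker, was near 0, at 0.0806 CPM in TRAM2-KO1, 0.0624 CPM in TRAM2-KO2 and 0.0545 CPM in control. The 10 basal markers summed to 5002 to 5414 CPM in TRAM2-KO1, 6066 to 6335 CPM in TRAM2-KO2 and 5663 to 5786 CPM in control. Their list includes CDH1, a gene of epithelial cells in general and not only of basal ones. Of 9 tested, 3 fell with TRAM2-KO1, LAMB3, CDH3 and CDH1 (2.2% of all genes tested fell). With TRAM2-KO2 4 rose, KRT5, KRT14, KRT17 and KRT6A (1.75% of all genes tested rose). None of these 4 keratin genes passed with TRAM2-KO1 in edgeR's test, where KRT5 had a log2 fold change of -0.09 (adjusted p = 0.107). By DESeq2 KRT5 was lower with TRAM2-KO1 and higher with TRAM2-KO2. Between the guides, 7 of the 9 were higher with TRAM2-KO2 than with TRAM2-KO1, against 1.42% of all genes tested. The 6 luminal markers summed to 45.1 to 50.8 CPM in TRAM2-KO1, 50.7 to 53.7 CPM in TRAM2-KO2 and 51.1 to 55.9 CPM in control. Of these, PGR and ELF5 were at or near 0. Most of the sum was GATA3, which averaged 43.5 CPM in TRAM2-KO1, 46.0 CPM in TRAM2-KO2 and 48.4 CPM in control. The 6 fibroblast markers summed to 2.33 to 3.35 CPM in TRAM2-KO1, 2.55 to 2.98 CPM in TRAM2-KO2 and 2.46 to 3.55 CPM in control. Of these, THY1 and COL1A2 were at or near 0. The 3 endothelial markers counted summed to at most 2.38 CPM and the 4 leukocyte markers to at most 0.530 CPM in any library. Whether the shift in basal markers or in GC bears on the genes below was not tested, except where a value with the GC trend removed is given.

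The promoters of a few members show the DNA core through which HIF acts. The sequences are the 250 bases before a start site from RefSeq (GRCh38.p14, all on the plus strand, 5′ to 3′), with each match to ACGTG or GCGTG on either strand in capitals. ADM and ANGPTL4 are shown because they fell with both guides, EPAS1 because it rose with TRAM2-KO2, and PGK1 as a glycolytic gene with several matches that did not pass with either guide. They lie at chr11:10304823-10305072, chr19:8363905-8364154, chr2:46297157-46297406 and chrX:78103998-78104247.
ADM: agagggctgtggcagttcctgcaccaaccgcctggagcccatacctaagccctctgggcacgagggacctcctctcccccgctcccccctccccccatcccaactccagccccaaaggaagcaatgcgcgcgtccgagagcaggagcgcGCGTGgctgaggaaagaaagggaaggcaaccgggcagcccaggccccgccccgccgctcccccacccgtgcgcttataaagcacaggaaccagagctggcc
ANGPTL4: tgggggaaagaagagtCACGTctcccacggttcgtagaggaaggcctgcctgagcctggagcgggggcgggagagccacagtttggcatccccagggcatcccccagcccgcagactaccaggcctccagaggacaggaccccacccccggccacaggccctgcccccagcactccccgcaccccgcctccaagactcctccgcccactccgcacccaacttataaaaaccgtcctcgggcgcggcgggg
EPAS1: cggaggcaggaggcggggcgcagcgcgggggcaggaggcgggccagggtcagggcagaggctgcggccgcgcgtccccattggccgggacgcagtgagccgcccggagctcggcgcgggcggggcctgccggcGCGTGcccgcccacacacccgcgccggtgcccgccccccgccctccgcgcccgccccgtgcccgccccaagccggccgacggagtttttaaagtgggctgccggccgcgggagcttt
PGK1: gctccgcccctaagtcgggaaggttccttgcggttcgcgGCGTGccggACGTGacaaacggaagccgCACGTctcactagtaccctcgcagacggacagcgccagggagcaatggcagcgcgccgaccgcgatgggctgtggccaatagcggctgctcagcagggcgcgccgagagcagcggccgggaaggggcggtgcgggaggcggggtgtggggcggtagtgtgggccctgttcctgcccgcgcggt

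A match is a description of letters and not a site of binding. Of the 34 members, 31 matched the RefSeq table by symbol, with 59 start sites, and 27 of the 31 (87.1%) had at least 1 match before at least 1 start, against 47.4% of all 27305 symbols of the table. Per start site, 36 of 59 windows (61.0%) held a match, against 43.2% of all 35116 windows of 250 bases. The member windows had a mean GC content of 65.4%, against 57.2% for all windows, and ACGTG and GCGTG are themselves rich in G and C. The core of the TEAD factors through which YAP binds DNA, GGAATG on either strand, was in 4 of 59 member windows (6.78%), against 11.9% of all windows, and before at least 1 start of 4 of the 31 members (12.9%), against 14.3% of all symbols. ADM had 1 match at 101 bases before its start, ANGPTL4 1 at 234 bases, EPAS1 1 at 117 bases, and PGK1 3 between 211 and 183 bases.

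Glycolytic transcripts were abundant in all groups and differed little between them. The 21 glycolysis members together made up 1.56% to 1.58% of all TPM (transcript abundance per length) in TRAM2-KO1, 1.53% to 1.56% in TRAM2-KO2 and 1.57% to 1.60% in control. Each TRAM2-KO2 library lay slightly under the lowest control, and the TRAM2-KO1 libraries overlapped the controls. GAPDH, the dehydrogenase that opens the pay-off phase, was the highest at 3647 ± 51.3 TPM in TRAM2-KO1, 3714 ± 64.6 TPM in TRAM2-KO2 and 3693 ± 29.3 TPM in control (SD, n = 3 libraries each). In control it was followed by PKM at 2469 ± 44.9 TPM, ENO1 at 2340 ± 63.0 TPM, LDHA at 2175 ± 45.6 TPM, ALDOA at 1272 ± 70.0 TPM, PGK1 at 1236 ± 51.8 TPM and TPI1 at 1118 ± 12.5 TPM. Of these neighbours only ALDOA and PGK1 overlapped between control libraries. ANGPTL4, a secreted inhibitor of lipoprotein lipase, was the highest of the hypoxia targets at 457 ± 21.5 TPM in control, above PGAM1, GPI and PFKP. HIF1A stood at 252 ± 2.31 TPM and EPAS1 at 49.1 ± 4.47 TPM. CA9, the membrane carbonic anhydrase often used as a marker of hypoxia, was the lowest member at 0.605 ± 0.222 TPM, about 6104 times below GAPDH.

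**Figure D1:**
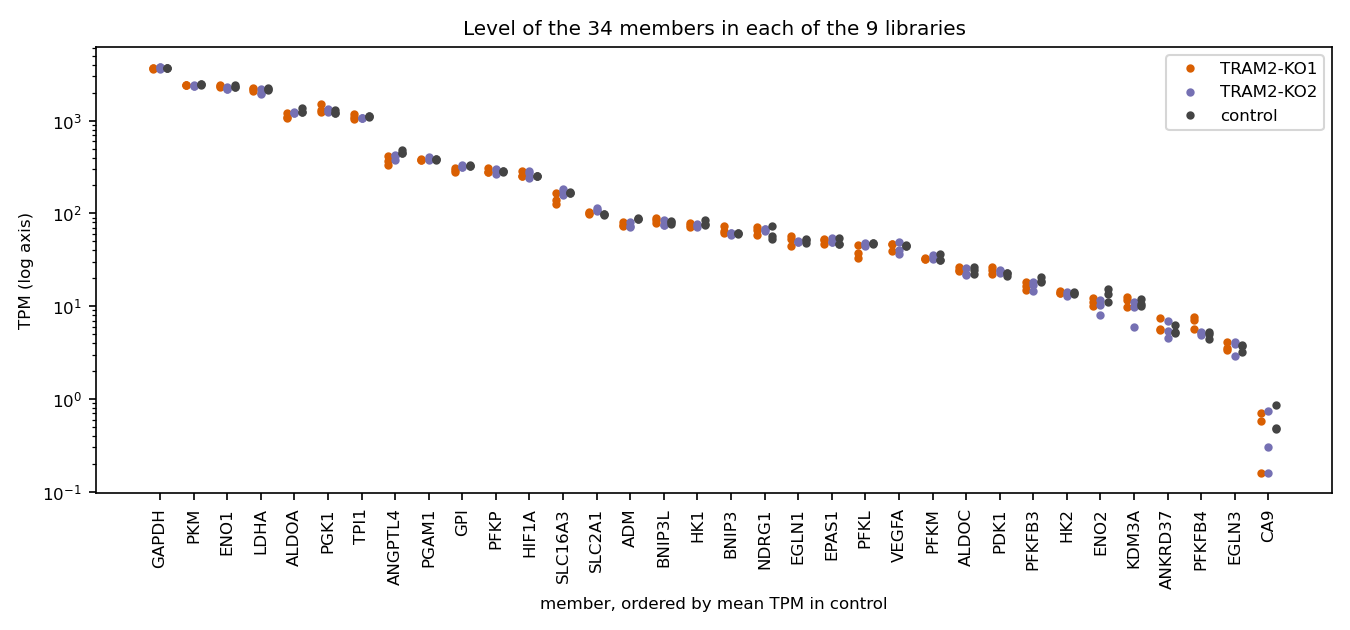
Level of each of the 34 members in the 9 libraries, in TPM on a log axis, ordered by the control mean, with 3 points per group for TRAM2-KO1, TRAM2-KO2 and control. The levels of a gene in the 3 groups lie close together, while the members range from 3693 TPM for GAPDH to 0.605 TPM for CA9 in control.

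Within a family, 1 paralog carried most of the transcripts. In control the housekeeping hexokinase HK1 stood at 79.2 TPM and the hypoxia-inducible HK2 at 13.9 TPM. Among the phosphofructokinases, PFKP stood at 283 TPM, PFKL at 47.6 TPM and PFKM at 33.3 TPM. ALDOA exceeded ALDOC, at 24.4 TPM, and ENO1 exceeded ENO2, at 13.3 TPM. The bifunctional enzymes that set the phosphofructokinase activator fructose 2,6-bisphosphate were low, with PFKFB3 at 19.3 TPM and PFKFB4 at 4.89 TPM. Transcripts of PKM (ENSG00000067225, GRCh37 chromosome 15, 72491370 to 72524160, minus strand) use either exon 9 (M1 form, 72495363 to 72495529) or exon 10 (M2 form, 72494795 to 72494961), both of 167 bases. Of the coding transcripts that could be told apart, the M2 form took 96.0%, 97.0% and 97.2% in the TRAM2-KO1 libraries A to C, 96.1%, 96.3% and 96.4% in TRAM2-KO2, and 96.7%, 96.5% and 96.9% in control. The 2 TRAM2-KO1 libraries B and C lay above all controls and library A below them, and the 3 TRAM2-KO2 libraries lay below all controls by under 1 percentage point. The shares leave out much of PKM: in control A the M2 and M1 forms held 988 and 33.7 TPM of the 2419 TPM of the gene. Non-coding transcripts held 24.6% to 34.9% of PKM TPM across libraries. These shares are Salmon estimates for similar transcripts, and no test was run on them.

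The first guide was set against control to see which of these genes changed when TRAM2 was targeted. PDK1, the kinase that keeps pyruvate out of the mitochondrial pyruvate dehydrogenase, rose by 17.6%. ADM, which encodes the vasodilator peptide adrenomedullin, fell by 12.9%, and ANGPTL4 fell by 16.7%. The other 31 members did not pass. Thus 1 of 34 members rose and 2 fell at an adjusted p under 0.05, against 0.761% of all genes tested that rose and 2.2% that fell. None both passed and changed by more than 0.5 on the log2 scale, the limit that the study set for a change, while 0.496% of all genes tested did both. The median log2 fold change of the members was 0.01, against 0.01 for all genes tested, and 8 members (23.5%) had an unadjusted p under 0.05, against 18.6% of all genes tested.

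The second guide was set against the same control libraries. ADM fell by 17.0% and ANGPTL4 by 16.8%, and EPAS1, which encodes the alpha subunit of HIF-2, rose by 9.44%. The other 31 members did not pass, so again 1 member rose and 2 fell, against 1.75% of all genes tested that rose and 2.5% that fell. None both passed and changed by more than 0.5, while 0.649% of all genes tested did both, and CA9 was beyond 0.5, at -0.995, without passing. The median of the members was -0.04, against -0.00 for all genes tested, and 8 (23.5%) had an unadjusted p under 0.05, against 15.03% of all genes tested. With TRAM2-KO2, 25 of the 34 members (73.5%) were below 0, and 15 of the 21 glycolysis members (71.4%), against 51.2% of all genes tested. With TRAM2-KO1 these were 15 (44.1%) and 10 (47.6%), against 48.6%. Both comparisons use the same 3 control libraries, so ADM and ANGPTL4 are not seen in independent controls. Changes of bulk mRNA do not tell fewer cells with a transcript from less of it per cell.

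**Figure D2:**
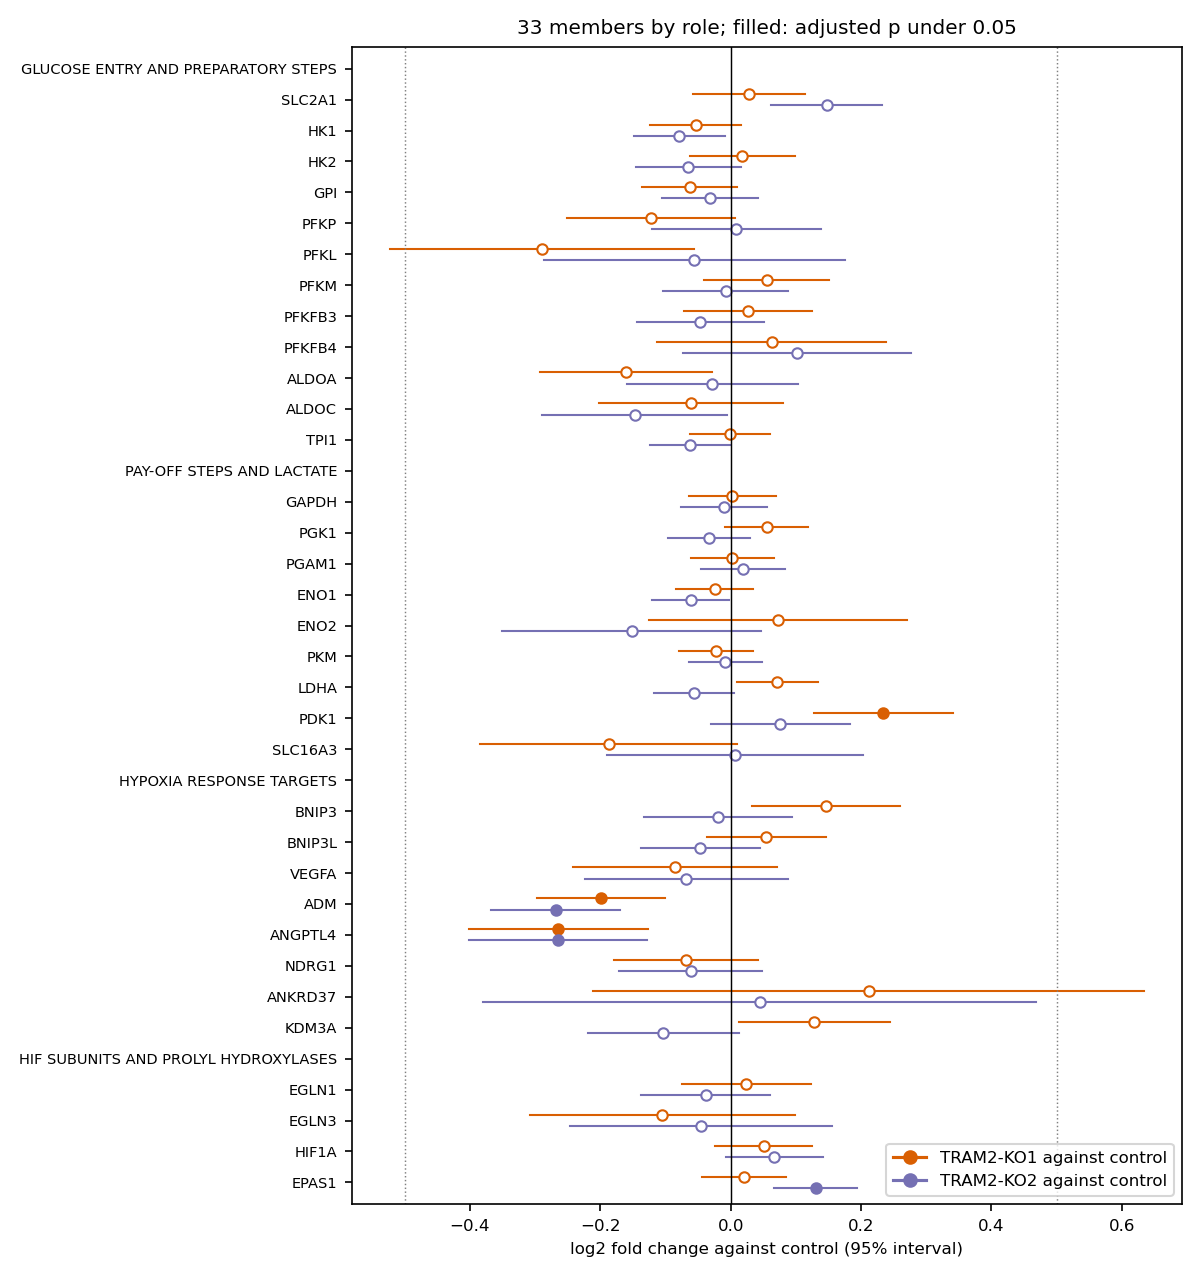
Log2 fold change of 33 members against control with 95% intervals, by role, for TRAM2-KO1 above TRAM2-KO2, with filled points for an adjusted p under 0.05 and dotted lines at 0.5 in either direction. CA9 is left out because its intervals are wider than the axis. PDK1, ADM and ANGPTL4 are filled with TRAM2-KO1 and ADM, ANGPTL4 and EPAS1 with TRAM2-KO2.

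ADM (ENSG00000148926, GRCh37 chromosome 11, 10326620 to 10328944, plus strand) stood at 90.3, 81.7 and 86.3 CPM in TRAM2-KO1 (libraries A to C), at 81.8, 85.7 and 79.0 CPM in TRAM2-KO2, and at 99.3, 101 and 96.4 CPM in control. Each of the 6 knockout libraries was under the lowest control. The log2 fold change was -0.20 with TRAM2-KO1 (SE 0.0444, 95% interval -0.298 to -0.101, adjusted p = 0.0409). It was -0.27 with TRAM2-KO2 (SE 0.0444, interval -0.367 to -0.170, adjusted p = 0.00644). The fall with TRAM2-KO2 was past the threshold in each of the 9 fits that left out 1 library, with an adjusted p of at most 0.042. With transcript length offsets, which take the estimated lengths of the transcripts in each library into account, it was -0.25 (adjusted p = 0.147). The fall with TRAM2-KO1 was -0.09 (adjusted p = 0.266) after removal of each library's GC trend. It did not pass without any 1 of 8 of the 9 libraries, at values of -0.22 to -0.17 and adjusted p of 0.0502 to 0.148, and it passed without TRAM2-KO1 A at -0.23 (adjusted p = 0.00935).

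ANGPTL4 (ENSG00000167772, chromosome 19, 8428173 to 8439254, plus strand) had 393, 331 and 344 CPM in TRAM2-KO1 (A to C), 374, 361 and 333 CPM in TRAM2-KO2, and 433, 436 and 414 CPM in control. Here too each knockout library was under the lowest control. The log2 fold change was -0.26 with TRAM2-KO1 (SE 0.0618, interval -0.401 to -0.127, adjusted p = 0.04995), at the edge of the threshold, and -0.26 with TRAM2-KO2 (SE 0.0618, interval -0.402 to -0.128, adjusted p = 0.039). Its longest transcript has 63.3% GC, among the highest of the members. With the GC trend removed it was -0.04 with TRAM2-KO1 (adjusted p = 0.637) and -0.25 with TRAM2-KO2 (adjusted p = 0.00104). With transcript length offsets it was -0.27 with TRAM2-KO1 (adjusted p = 0.289) and -0.18 with TRAM2-KO2 (adjusted p = 0.505). With library A alone for TRAM2-KO1, a single library assumed to vary like the other groups, the value was -0.12 for ANGPTL4 (adjusted p = 0.597) and -0.14 for ADM (adjusted p = 0.457). With TRAM2-KO1 the fall of ANGPTL4 passed only without TRAM2-KO1 A, at -0.34 (adjusted p = 0.00215), and without any 1 other library it stood at -0.29 to -0.22 with an adjusted p of 0.0508 to 0.173. With TRAM2-KO2 it passed in 2 of the 9 fits without 1 library, those without TRAM2-KO1 A or B. Without any control or TRAM2-KO2 library, or without TRAM2-KO1 C, it stood at -0.30 to -0.22 with an adjusted p of 0.0594 to 0.152.

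PDK1 (ENSG00000152256, chromosome 2, 173420101 to 173473397, plus strand) stood at 41.9, 46.0 and 45.1 CPM in TRAM2-KO1, at 38.1, 41.2 and 39.9 CPM in TRAM2-KO2, and at 37.4, 38.5 and 37.0 CPM in control. The TRAM2-KO1 libraries were above all others, and those of TRAM2-KO2 overlapped the controls. The log2 fold change was 0.23 with TRAM2-KO1 (SE 0.0482, interval 0.128 to 0.341, adjusted p = 0.0272) and 0.08 with TRAM2-KO2 (interval -0.0308 to 0.183, adjusted p = 0.54). PDK1 is among the members lowest in GC, at 39.5%, and with the GC trend removed the value with TRAM2-KO1 was 0.19 (adjusted p = 0.0219). It did not pass without control A, B or C or without TRAM2-KO1 B or C, at 0.20 to 0.24 with an adjusted p of 0.084 to 0.126. With transcript length offsets it was 0.17 (adjusted p = 0.423). With library A alone for TRAM2-KO1, again assumed to vary like the other groups, it was 0.15 (adjusted p = 0.494). The guides themselves differed by -0.16 (TRAM2-KO2 over TRAM2-KO1, adjusted p = 0.12), which did not pass.

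EPAS1 (ENSG00000116016, chromosome 2, 46520806 to 46613836, plus strand) stood at 166, 163 and 169 CPM in TRAM2-KO1, at 174, 181 and 182 CPM in TRAM2-KO2, and at 165, 163 and 162 CPM in control. The TRAM2-KO2 libraries lay above all 6 others. The log2 fold change was 0.02 with TRAM2-KO1 (interval -0.0438 to 0.0849, adjusted p = 0.75) and 0.13 with TRAM2-KO2 (SE 0.0289, interval 0.0661 to 0.194, adjusted p = 0.0312). The rise was 0.03 with transcript length offsets (adjusted p = 0.935), and on the length-adjusted TPM scale EPAS1 stood at 50.7 ± 2.66 in TRAM2-KO2 and 49.1 ± 4.47 in control. It did not pass without control A, B or C or without TRAM2-KO2 B or C, at 0.12 to 0.14 with an adjusted p of 0.114 to 0.135, nor with no filter on low counts, at 0.14 (adjusted p = 0.0527). HIF1A, which encodes the alpha subunit of HIF-1, stood at 530, 547 and 578 CPM in TRAM2-KO1, at 544, 567 and 562 CPM in TRAM2-KO2, and at 537, 530 and 530 CPM in control. Its log2 fold changes were 0.05 (interval -0.0235 to 0.125, adjusted p = 0.451) and 0.07 (interval -0.00726 to 0.142, adjusted p = 0.399). EGLN1 and EGLN3, the prolyl hydroxylases that mark HIF for degradation, had 0.02 and -0.10 with TRAM2-KO1 and -0.04 and -0.05 with TRAM2-KO2, and neither passed.

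**Figure D3:**
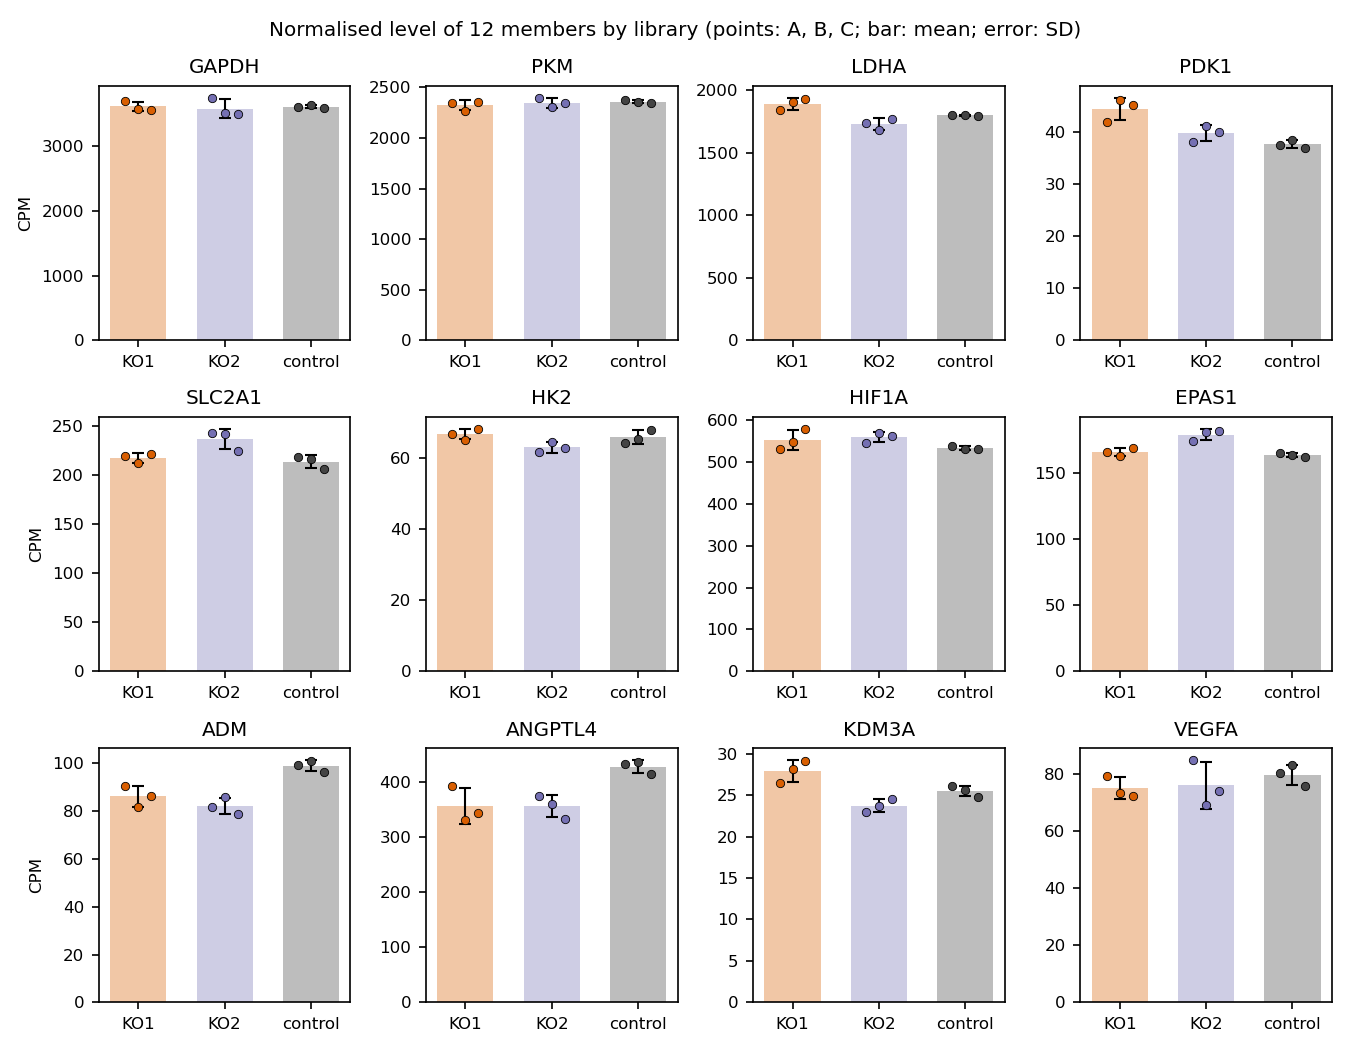
CPM of 12 members in each library, with TRAM2-KO1, TRAM2-KO2 and control from left to right, points for libraries A, B and C, bars for the mean and error bars for the SD. ADM and ANGPTL4 lie below control in both knockouts, while GAPDH and PKM stand at the same height in the 3 groups.

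Among genes of glucose entry and the preparatory steps, 0 of 12 passed with either guide in edgeR's test, with 2 unadjusted p under 0.05 for TRAM2-KO1 and 4 for TRAM2-KO2, and 1 by DESeq2, SLC2A1 with TRAM2-KO2. SLC2A1 (GLUT1, the main glucose transporter of epithelial cells, chromosome 1, 43391024 to 43424564, minus strand) had 220, 212 and 222 CPM in TRAM2-KO1, 243, 242 and 225 CPM in TRAM2-KO2, and 219, 217 and 206 CPM in control. The TRAM2-KO2 libraries were above all others. Its log2 fold change with TRAM2-KO2 was 0.15 (interval 0.0615 to 0.233), with an adjusted p of 0.0663 by edgeR and 0.0126 by DESeq2. Over the alternatives its adjusted p spanned 0.0126 to 0.235, with 7 of 19 past the threshold. With TRAM2-KO1 the value was 0.03 (interval -0.0573 to 0.114). HK2, which traps glucose as its phosphate, stood at 66.9, 65.4 and 68.3 CPM in TRAM2-KO1, at 61.7, 64.7 and 63.0 CPM in TRAM2-KO2, and at 64.4, 65.6 and 68.1 CPM in control. Its log2 fold changes were 0.02 (interval -0.0621 to 0.0983) and -0.06 (interval -0.145 to 0.0153), and the ranges of both knockouts overlapped those of control.

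PFKL, the liver-type phosphofructokinase and a GC-rich member, had the highest coefficient of variation between the libraries of TRAM2-KO1, 19.0%, once CA9 with its few reads was left out. It had 108, 75.3 and 84.3 CPM in TRAM2-KO1 (A to C), 110, 107 and 97.9 CPM in TRAM2-KO2, and 106, 112 and 110 CPM in control. Its log2 fold change with TRAM2-KO1 was -0.29 (interval -0.523 to -0.0555, adjusted p = 0.183), and with the GC trend removed it was -0.06. The lactate exporter SLC16A3 (MCT4) had 278, 207 and 233 CPM in TRAM2-KO1, 286, 284 and 251 CPM in TRAM2-KO2, and 273, 276 and 270 CPM in control. Its log2 fold change with TRAM2-KO1 was -0.19 as fitted and 0.01 with the GC trend removed. PFKP and ALDOA had -0.12 and -0.16 with TRAM2-KO1, and 0.01 and -0.03 with TRAM2-KO2, none of them past the test. Over the 34 members, GC content and the log2 fold change with TRAM2-KO1 were correlated at a Spearman rho of -0.518, which was -0.129 with the GC trend removed. For TRAM2-KO2 the correlations were -0.300 and -0.297. The points share their libraries, and the correlations are given as descriptions.

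**Figure D4:**
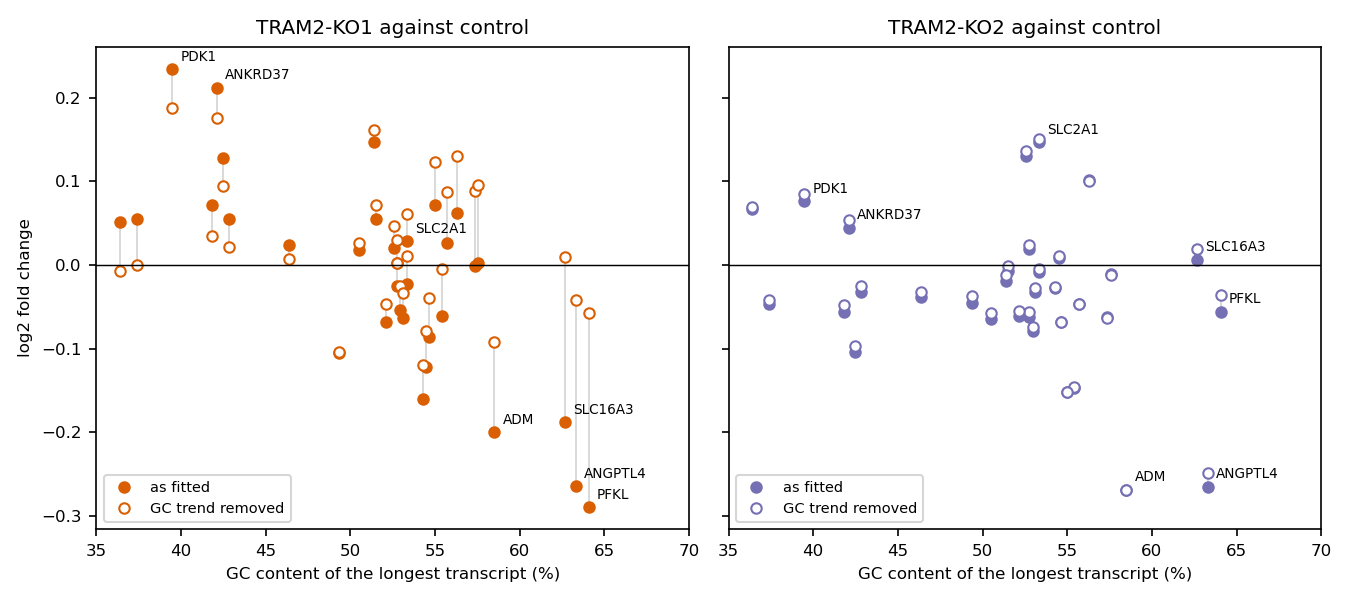
Log2 fold change of 33 members against the GC content of the longest transcript, for TRAM2-KO1 at left and TRAM2-KO2 at right, with filled points as fitted and open points after removal of each library's GC trend. CA9 is left out. Grey lines join the values of a gene. With TRAM2-KO1 the GC-rich PFKL, ANGPTL4, SLC16A3 and ADM move towards 0, while with TRAM2-KO2 ADM and ANGPTL4 stay at -0.27 and -0.25.

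Abundant enzymes of the pay-off phase had narrow intervals. GAPDH stood at 3689, 3573 and 3554 CPM in TRAM2-KO1, at 3734, 3503 and 3483 CPM in TRAM2-KO2, and at 3592, 3624 and 3580 CPM in control, from 77361 to 100130 reads a library. Its log2 fold changes were 0.00 (interval -0.0639 to 0.0690) and -0.01 (interval -0.0765 to 0.0564), and the value with TRAM2-KO1 was 0.10 with the GC trend removed. PKM stood at 2341, 2267 and 2358 CPM in TRAM2-KO1, at 2393, 2300 and 2342 CPM in TRAM2-KO2, and at 2375, 2359 and 2342 CPM in control, with log2 fold changes of -0.02 (interval -0.0786 to 0.0337) and -0.01 (interval -0.0645 to 0.0478). PGK1, PGAM1 and ENO1 had 0.06, 0.00 and -0.02 with TRAM2-KO1 and -0.03, 0.02 and -0.06 with TRAM2-KO2, none past the test. Of the 21 glycolysis members, 20 had a 95% interval inside 0.5 in either direction with TRAM2-KO1 and 21 with TRAM2-KO2, which holds for 70.5% and 72.1% of all genes tested. Inside 0.25 were 15 and 17 of the 21, against 44.5% and 47.5% of all genes tested. A p that misses the threshold does not show that a gene did not change, and the intervals give the sizes these libraries allow.

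The 9 hypoxia response targets among the members, ADM and ANGPTL4 included, had 5 log2 fold changes above 0 and 4 below with TRAM2-KO1, and 1 above and 8 below with TRAM2-KO2. Of all genes tested, 48.6% were below 0 with TRAM2-KO1 and 51.2% with TRAM2-KO2. VEGFA, which encodes the angiogenic growth factor, stood at 79.5, 73.5 and 72.4 CPM in TRAM2-KO1, at 84.9, 69.0 and 74.2 CPM in TRAM2-KO2, and at 80.3, 83.0 and 75.9 CPM in control. The ranges overlapped, and its log2 fold changes were -0.09 (interval -0.242 to 0.0712) and -0.07 (interval -0.224 to 0.0878). BNIP3 and BNIP3L, which encode receptors for the removal of mitochondria, had 0.15 and 0.05 with TRAM2-KO1 and -0.02 and -0.05 with TRAM2-KO2, and NDRG1, a stress-response gene, had -0.07 and -0.06. None of these values passed. Of the reads of BNIP3 and its pseudogenes, 0.688% to 0.982% fell on the pseudogenes. ANKRD37 had 56 to 83 reads a library, and its intervals of -0.211 to 0.635 and -0.379 to 0.469 leave a change of moderate size possible. CA9 had 0.700, 0.831 and 0.0658 CPM in TRAM2-KO1, 0.126, 0.290 and 0.182 CPM in TRAM2-KO2, and 0.571, 0.350 and 0.189 CPM in control, from 2 to 19 reads a library. Its interval with TRAM2-KO2, -2.63 to 0.644, spans both directions, and no difference in CA9 was detected.

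The comparison of TRAM2-KO2 with TRAM2-KO1 asks whether the guides differed. Of the 34 members, 0 were higher and 2 were lower with TRAM2-KO2, against 1.42% of all genes tested that were higher and 0.867% that were lower. None both passed and differed by more than 0.5, while 0.477% of all genes tested did both, and CA9 was at -1.46 without passing. An unadjusted p under 0.05 in either direction was reached by 14 members (41.2%), against 19.9% of all genes tested. DESeq2 gave 1 member as higher, EPAS1, and 1 as lower, LDHA, and did not call KDM3A. LDHA (chromosome 11, 18416107 to 18429972, plus strand), the subunit of lactate dehydrogenase that favours lactate, stood at 1739, 1677 and 1767 CPM in TRAM2-KO2, at 1835, 1905 and 1923 CPM in TRAM2-KO1, and at 1800, 1800 and 1789 CPM in control. The TRAM2-KO2 libraries were below all controls and the TRAM2-KO1 libraries above them. The difference was -0.13 (SE 0.0279, interval -0.190 to -0.0661, adjusted p = 0.0451), while against control the values were 0.07 (adjusted p = 0.207) for TRAM2-KO1 and -0.06 (adjusted p = 0.395) for TRAM2-KO2. Of the reads of LDHA and its pseudogenes, 2.28% to 2.79% fell on the pseudogenes, and with these reads added the difference was -0.13 (adjusted p = 0.0403).

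KDM3A (chromosome 2, 86667770 to 86719839, plus strand), a histone demethylase induced by HIF, stood at 23.0, 23.6 and 24.6 CPM in TRAM2-KO2, at 26.5, 28.1 and 29.1 CPM in TRAM2-KO1, and at 26.0, 25.7 and 24.8 CPM in control. The TRAM2-KO2 libraries were again the lowest and the TRAM2-KO1 libraries the highest. The difference was -0.23 (SE 0.0521, interval -0.347 to -0.117, adjusted p = 0.049). Both genes are low in GC, at 41.8% and 42.5%. With the GC trend removed the differences were -0.08 for LDHA (adjusted p = 0.107) and -0.19 for KDM3A (adjusted p = 0.0512). ADM and ANGPTL4, which had -0.07 (adjusted p = 0.423) and -0.00 (adjusted p = 0.998) between the guides as fitted, then passed at -0.18 (adjusted p = 0.0322) and -0.21 (adjusted p = 0.0087). Without any 1 library other than TRAM2-KO1 A, neither LDHA nor KDM3A passed, at -0.14 to -0.10 with an adjusted p of 0.0583 to 0.184 for LDHA, and at -0.26 to -0.19 with an adjusted p of 0.0728 to 0.181 for KDM3A. Without TRAM2-KO1 A they stood at -0.15 (adjusted p = 0.00833) and -0.27 (adjusted p = 0.0114).

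Wider lists of the same pathways place the members. Of 35 other hypoxia response targets, 34 were tested, and with TRAM2-KO1 9 fell (26.5%) and 1 rose (2.94%), against 2.2% and 0.761% of all genes tested. With TRAM2-KO2 10 fell (29.4%) and 0 rose in edgeR's test, against 2.5% and 1.75%, with 12 unadjusted p under 0.05 in either direction and 0 higher by DESeq2. Of the 34, 18 were below 0 with TRAM2-KO1 and 22 with TRAM2-KO2. Their median log2 fold changes were -0.02 and -0.08, against 0.01 and -0.00 for all genes tested. Among those with the smallest p were PLOD2, which hydroxylates collagen lysines, at -0.39 and -0.54, and the lysyl oxidase genes LOX at -0.26 and -0.40 and LOXL2 at -0.41 and -0.46, with TRAM2-KO1 and TRAM2-KO2. PLOD2 averaged 984 ± 28.9 CPM in TRAM2-KO1, 888 ± 24.9 CPM in TRAM2-KO2 and 1288 ± 10.3 CPM in control (SD, n = 3 each). These 3 genes act on collagen, and none is an enzyme of glycolysis. Of 33 other glycolysis and glucose entry genes, 19 were tested. With TRAM2-KO1 1 fell (5.26%) and with TRAM2-KO2 2 fell (10.5%), against 2.2% and 2.5% of all genes tested. ADPGK, an ADP-dependent glucokinase of the ER, fell at -0.22 and -0.26, and MINPP1, an ER phosphatase that also acts on a glycolytic intermediate, fell at -0.29 with TRAM2-KO2. Of 8 pentose phosphate genes H6PD, the ER counterpart of glucose 6-phosphate dehydrogenase, fell at -0.44 and -0.29, and of 14 tested HIF pathway components OS9, an ER lectin, fell at -0.24 and -0.24. These single genes are 12.5% and 7.14% of their lists with each guide, against the same 2.2% and 2.5% of all genes tested. Of the 12 genes of pyruvate entry into mitochondria, 0 passed with either guide in edgeR's test, with 1 and 0 unadjusted p under 0.05 and 0 by DESeq2.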

How the data were processed

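Poly(A)+ RNA was sequenced from TruSeq libraries. The authors trimmed reads with cutadapt and quantified transcripts with Salmon. Versions, transcript set and build: not given in the sources used here. The deposited values are expected (estimated) counts per transcript, TPM and effective lengths. The deposited TPM values sum over a library's transcripts to a fixed total, and the deposited effective lengths were used only for the length offsets. Expected counts were summed per gene symbol through GENCODE v44 lifted to GRCh37, which may not be the authors' build, and rounded. Of 226030 transcripts, 97.5% had a gene, and those that name no gene held 1.51% to 1.55% of the reads. Paralogs and pseudogenes can share reads. Gene positions are on GRCh37.

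A quasi-likelihood model (edgeR 4.0.16, R 4.3.3) with group as its only term was fitted to all 9 libraries, with TMM scaling and filterByExpr at a minimum of 10 reads. P values are two-sided and adjusted by Benjamini-Hochberg over 15109 genes, and "rose" and "fell" mean an adjusted p under 0.05. CPM are counts divided by the TMM-scaled library size and multiplied by a constant, SE stands for the standard error of log2 values, and intervals are at 95% and cover the error of the model only. GC content is that of the longest transcript, and its trend was removed by a spline per library used as an offset. Alternatives were DESeq2 1.42.0, size-factor scaling, no filter, a mean of at least 5 CPM, GC-trend removal, length offsets, pseudogene reads added, counts per gene ID, a block on library letter, TRAM2-KO1 as library A alone, and each library left out. The fit was also run on simulated counts, which were drawn without a GC trend or a shift in transcript length. Those runs therefore do not test how such trends affect the results.

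Members and lists were chosen with earlier results of these data known. Values per library are given for members past the threshold in any comparison and for SLC2A1, HK2, GAPDH, PKM, LDHA, HIF1A, VEGFA and CA9, and from each wider list for up to 4 genes that passed with the smallest p, of which 1 is not reported here. PFKL and SLC16A3 were given per library after their values were seen. Groups come from the sample labels. The series design text names other conditions, and it alone speaks of biological replicates, so p values measure the spread between these libraries, which may be partly technical. No pair of libraries agreed within sampling noise (chi-square per degree of freedom 2.06 to 10.7).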

Additional observations from a re-analysis of the deposited data

Results flagged for a closer look

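LDHA and KDM3A differed between the guides in edgeR's test of TRAM2-KO2 against TRAM2-KO1, at a log2 difference of -0.13 (adjusted p = 0.0451) and -0.23 (adjusted p = 0.049). In both genes all 3 TRAM2-KO2 libraries lay below and all 3 TRAM2-KO1 libraries above the control libraries. LDHA averaged 1728 ± 46.0 CPM in TRAM2-KO2 and 1888 ± 46.3 CPM in TRAM2-KO1, and KDM3A 23.7 ± 0.809 CPM and 27.9 ± 1.33 CPM (SD, n = 3 each). Neither passed against control with either guide. Each difference between the guides passed in 4 of 20 alternatives, and DESeq2 called LDHA but not KDM3A. With the GC trend removed the difference was -0.08 (adjusted p = 0.107) for LDHA and -0.19 (adjusted p = 0.0512) for KDM3A.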

How the results depend on the processing

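No direction of a change that passed was turned by any alternative. With TRAM2-KO1, 3 members passed, against 1 with the GC trend removed, 1 with the replicate block and the GC trend removed, 0 with transcript length offsets, 0 with TRAM2-KO1 as library A alone (assumed to vary like the other groups), and 0 to 8 without 1 library. The highest count, 8, was without TRAM2-KO1 A, and the counts were 0 without any 1 control library or TRAM2-KO1 B or C and 1 without any 1 TRAM2-KO2 library. Of all genes tested, 1965 of 15377 passed without TRAM2-KO1 A, against 447 of 15109 in the main fit. Without any 1 other library, 244 to 366 genes passed. With TRAM2-KO2, 3 members passed, against 0 with length offsets and 1 to 4 without 1 library, with 1 without control A, B or C or TRAM2-KO2 B. Of all genes tested, 326 to 773 passed without 1 library, against 642 in the main fit. Between the guides, 2 members passed, against 0 with size-factor scaling, 0 with no filter on low counts, 0 with the replicate block, 0 with length offsets, 0 with library A alone, and 0 to 10 without 1 library. The count was 10 without TRAM2-KO1 A and 0 without any 1 other library. Of all genes tested, 1846 of 15377 passed between the guides without TRAM2-KO1 A, against 346 of 15109 in the main fit. Without any 1 other library, 107 to 210 genes passed.

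Over all genes, length offsets left 112, 153 and 49 genes past the threshold, against 447, 642 and 346. Libraries that share a letter did not deviate together (correlations of -0.0869 to 0.0932), so the letters were not taken as pairs. With the replicate block 2 members passed with each guide, and EPAS1 had an adjusted p of 0.0552 with TRAM2-KO2 and ADM one of 0.0581 with TRAM2-KO1. Where no value above shows a cause, the cause was not tested. The lowest libraries of CA9, ANKRD37 and EGLN3 held 2, 56 and 106 reads, and whether depth limited their results was not tested. EGLN3 had intervals of -0.308 to 0.0986 with TRAM2-KO1 and -0.247 to 0.156 with TRAM2-KO2.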

Other observations

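Besides PLOD2, LOX and LOXL2, a further 5 of the other hypoxia response targets that fell with TRAM2-KO1 are named here, after their values were seen. DDIT4, which encodes an inhibitor of mTORC1 signalling, averaged 48.6 ± 2.36 CPM in TRAM2-KO1, 52.5 ± 4.16 CPM in TRAM2-KO2 and 69.4 ± 0.343 CPM in control (SD, n = 3 each), with log2 fold changes of -0.51 and -0.40. STC2, a secreted glycoprotein hormone, had -0.25 and -0.35, and ERO1A, the oxidase that drives disulfide formation in the ER, had -0.25 and -0.22. P4HA1 and P4HA2, the catalytic subunits of collagen prolyl 4-hydroxylase, had -0.21 and -0.23 with TRAM2-KO1 and -0.28 and -0.27 with TRAM2-KO2. All of these values passed in edgeR's test, and both comparisons share the control libraries. TFRC, the transferrin receptor, fell with TRAM2-KO2 at -0.15 (adjusted p = 0.0298), and IGFBP3 rose with TRAM2-KO1 at 0.16 (adjusted p = 0.0272). By DESeq2, 3 of 14 tested genes among the other glycolysis and glucose entry genes passed with TRAM2-KO1, against 662 of all 10420 genes it tested. By edgeR 1 of 19 passed, against 447 of all 15109. The additional genes were SLC16A1, a monocarboxylate transporter, and BSG, the chaperone of such transporters. Of the 3 genes, 1 was higher and 2 were lower by DESeq2. In edgeR's test with TRAM2-KO1, SLC16A1 had 0.12 (adjusted p = 0.0578) and BSG -0.20 (adjusted p = 0.169). BSG is GC-rich, at 62.4%, and had 333, 262 and 295 CPM in TRAM2-KO1 (A to C). Whether GC bears on its value was not tested.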
